A study of Homo sapiens with 12 samples.

Results

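The 10 genes described here encode the apolipoproteins APOA1, APOA2, APOA4, APOB, APOC1, APOC3, APOE, APOH and APOM and the microsomal triglyceride transfer protein MTTP. They were chosen by gene symbol, and each symbol matched 1 of the 27249 genes with an Ensembl identifier (98711 rows in all, the other 71462 under NONCODE identifiers). RNA was sequenced from Huh7 and HepG2, established human liver cancer cell lines labelled with the genotype WT, with 3 samples in each of 4 groups. The paper treats both as hepatocellular carcinoma cells. Parental cells of each line had no treatment. Resistant cells were survivors of sorafenib, a multikinase inhibitor used against liver cancer, selected over 8 months in rising concentrations after an initial dose of 10 μmol. All groups shared the same library protocol, and the sources do not say whether the 3 samples of a group were separate cultures or whether a resistant line was a single clone, so that p-values measure the spread between these samples, which may be technical.

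Values are called FPKM (fragments scaled by exon length and sequencing depth), a level per length that can be compared between genes. A sample rested on 18972395 to 19285956 reads in resistant Huh7, 16158300 to 17944445 in parental Huh7, 16935536 to 18281770 in resistant HepG2 and 12290131 to 15728846 in parental HepG2. Of 7 hepatocyte markers, 6 had a mean of at least 1 FPKM in resistant Huh7, parental Huh7 and resistant HepG2 and 7 in parental HepG2. ALB, which encodes albumin, ranged from 571 to 2137 FPKM over all samples. The summed level of the 7 markers was lower in resistant cells, at 4235 to 4551 FPKM against 6979 to 8611 in Huh7 and 2451 to 2671 against 3786 to 4842 in HepG2, and its part in the results below was not tested. AFP (mean 2291 FPKM in resistant and 5332 in parental Huh7, 366 and 1394 in HepG2) and ALB (695 and 952, 825 and 1615) made up most of the difference. The means of FGB (11.2 and 47.3) and TF (99.2 and 125) in HepG2, of TTR (328 and 391) in Huh7 and of HP (0.29 and 0.94, 0.80 and 1.22) were also lower in resistant cells. Those of TF (56.6 and 49.2), SERPINA1 (786 and 669) and FGB (268 and 244) in Huh7 and of SERPINA1 (1214 and 1100.1) in HepG2 were higher. TTR in HepG2 was at 30.7 and 30.6. The summed level of 11 markers of other cell types (leukocytes, endothelium, fibroblasts, bile duct and intestine) was 83.9 to 85.0 FPKM in resistant and 21.4 to 25.5 in parental Huh7, and 90.6 to 100.9 in resistant and 89.3 to 101.6 in parental HepG2. Of these markers 3 to 5 a group had a mean of at least 1 FPKM, CD68 was at 0 in the parental Huh7 samples, and EPCAM and VIL1, which liver cancer cells also express, made up most of the sum in Huh7, with means of 25.4 and 55.2 FPKM in resistant and 6.14 and 13.7 in parental cells.

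Apolipoproteins are the protein part of the particles in which lipids travel in blood. The hepatocyte loads triglyceride onto APOB with the help of MTTP and secretes the product as very-low-density lipoprotein (VLDL), while APOA1 and APOA2 form the core of high-density lipoprotein (HDL). The C and E apolipoproteins move between particles and set how fast they are broken down and taken up by receptors.

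APOA2 was higher in resistant cells of both lines, and no other member passed the threshold for a change in either line. The mean of APOA1 was also higher in resistant cells of both lines, short of the threshold and with more spread between samples. MTTP was lower in resistant HepG2, and APOB was lower in resistant Huh7, each by less than the fold required. The adjusted p of both depended on single samples, and that of APOB also on the processing. APOC1 was higher in resistant Huh7 by less than the fold required, and its change differed between the lines. In HepG2 it did not pass the adjusted p, except with the trend in GC content removed. APOC3, APOH and APOM kept a large gap between the lines, and APOA4 and APOE were near the limit of detection. A gene was called where limma's Benjamini-Hochberg adjusted p was under 0.05 and the log2 fold change of FPKM + 1 was beyond 1, and genes entered the test where 3 or more of the 6 samples compared reached 1 FPKM. For the difference between the lines only the adjusted p was required, with no fold limit. Of the 10 members, 8 passed this filter in each comparison and APOA4 and APOE did not.

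**Figure D1:**
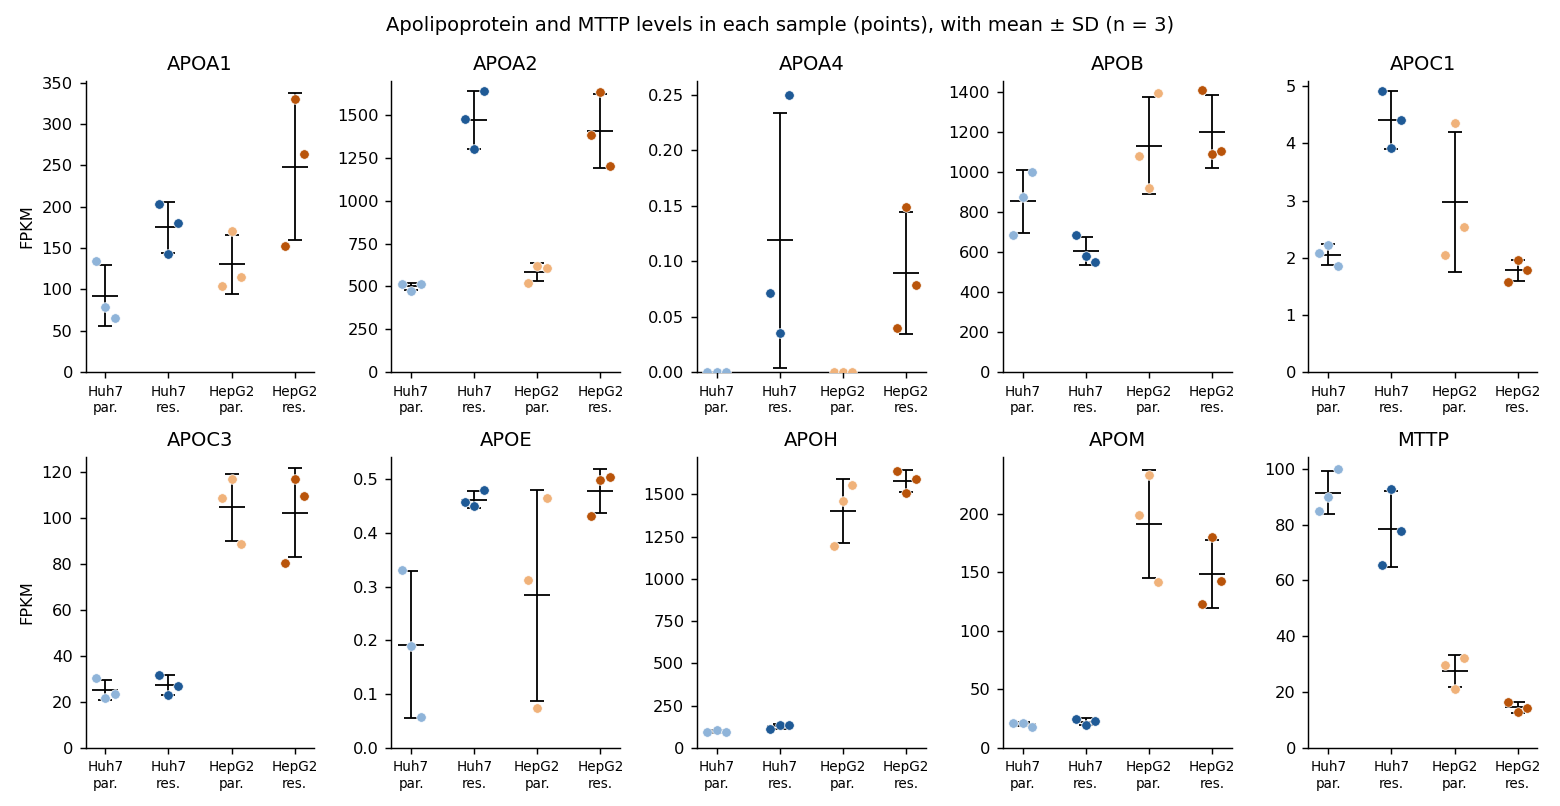
FPKM of the 10 members in every sample, on axes that start at 0; points are samples, and the horizontal bar and whiskers are the mean and SD of 3 samples, with par. for parental and res. for resistant cells. APOA2 lies between 474 and 622 in the 6 parental samples and between 1201 and 1639 in the 6 resistant samples, while APOH, APOM, APOC3 and MTTP separate the lines.

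APOA2 (ENSG00000158874, chr1:161222292-161223631, minus strand, GRCh38) encodes the second most abundant protein of HDL. Its level was 1476, 1302 and 1639 FPKM in resistant Huh7 and 514, 474 and 511 in parental Huh7. The HepG2 values were 1386, 1636 and 1201 in resistant and 522, 622 and 607 in parental cells. Every resistant sample was thus above every parental sample of either line. The mean was 2.95 times the parental mean in Huh7 and 2.41 times in HepG2. The log2 fold change was 1.55 ± 0.14 (SE) in Huh7 and 1.26 ± 0.17 in HepG2, with limma adjusted p of 5.8e-05 and 0.0023. Of all genes tested, 8.59% were called higher and 14% lower in Huh7, and 3.29% were called higher and 2.98% lower in HepG2, and 0.281% of the genes tested in both lines were called higher in both. With median-ratio scaling the calls in HepG2 were 285 higher and 428 lower against 387 and 350 as deposited, and the median over all genes tested was 0.03 against 0.12, with APOA2 called in both. Among genes ranked by FPKM, APOA2 stood at places 14 to 19 in parental and 6 to 9 in resistant Huh7, and at 25 to 32 in parental and 3 to 6 in resistant HepG2. Its change did not differ detectably between the lines (Huh7 minus HepG2 0.29 on the log2 scale, 95% interval -0.17 to 0.75, limma adjusted p = 0.25). In bulk RNA, fewer cells that express a gene and less of its RNA per cell cannot be told apart.

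The call of APOA2 was made under every processing alternative tried in both lines, with a log2 fold change of 1.10 to 1.64 in Huh7 and 1.15 to 1.37 in HepG2. The lowest value in Huh7 was that after the trend of each sample with the GC content of genes was removed. RefSeq promoters were at hand for 7 of the 10 members. The bases before the start of APOA2 are shown as those of the member called in both lines, of APOA4 as those of the member with reads in resistant samples alone, and of APOH as those of the member that differed most between the lines. They are written 5′ to 3′ on the strand of the gene, up to its exon, with capitals for matches of the motifs described next.

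APOA2 (GRCh38.p14, chr1:161223632-161223878, minus strand, 247 bases): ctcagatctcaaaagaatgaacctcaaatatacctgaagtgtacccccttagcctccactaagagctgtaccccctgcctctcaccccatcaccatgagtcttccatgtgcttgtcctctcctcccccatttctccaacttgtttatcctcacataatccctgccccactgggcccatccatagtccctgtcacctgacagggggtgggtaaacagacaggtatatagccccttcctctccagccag
APOA4 (GRCh38.p14, chr11:116823307-116823554, minus strand, 248 bases): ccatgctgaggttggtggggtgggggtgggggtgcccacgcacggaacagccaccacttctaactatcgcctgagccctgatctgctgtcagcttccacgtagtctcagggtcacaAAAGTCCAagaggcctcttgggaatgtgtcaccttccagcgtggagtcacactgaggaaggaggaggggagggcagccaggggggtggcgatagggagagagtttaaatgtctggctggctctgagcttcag
APOH (GRCh38.p14, chr17:66229423-66229665, minus strand, 243 bases): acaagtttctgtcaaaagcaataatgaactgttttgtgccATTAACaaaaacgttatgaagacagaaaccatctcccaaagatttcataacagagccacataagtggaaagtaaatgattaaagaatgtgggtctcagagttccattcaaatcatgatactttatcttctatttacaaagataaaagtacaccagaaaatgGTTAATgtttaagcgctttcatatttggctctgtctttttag

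Motifs of factors known in hepatocytes were searched on both strands of the 250 bases before each RefSeq start. AAAGTCCA, a core of the HNF4 site, was found in APOA4, 134 bases before the start, and in 0.980% of all 35116 promoters. GTTAAT, a core of the HNF1 site, was found in APOH at 49 bases and, on the other strand, at 210 bases before the start, and in 6.23% of all promoters. AGGTCA, the core bound by many nuclear receptors, was found on the other strand of 1 of the 2 MTTP promoters, 50 bases before the start, and in 12.1% of all. TATAAA was found in the same MTTP promoter on the other strand, at 227 bases, and in 10.7% of all. TTGCNNAA, a site of the C/EBP family, was found in none of these 7 members and in 9.05% of all. The APOA2 window held none of these letter strings, as did those of APOC1, APOE and APOM. A match is a description of the letters, and these motifs were chosen with the sequences in view.

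APOA1 (ENSG00000118137, chr11:116835751-116837950, minus strand) encodes the main structural protein of HDL, which activates the cholesterol-esterifying enzyme LCAT. Its level was 203, 142 and 180.1 FPKM in resistant Huh7 and 134, 78.2 and 64.8 in parental Huh7. The HepG2 values were 153, 329.8 and 263 in resistant and 104, 171 and 115 in parental cells. The groups did not overlap in Huh7 and overlapped in HepG2, where resistant replicate 1 was below parental replicate 2. The mean was 1.90 times the parental mean in Huh7 and 1.91 times in HepG2. The log2 fold change was 0.97 ± 0.26 (limma adjusted p = 0.0093) in Huh7 and 0.89 ± 0.30 (limma adjusted p = 0.068) in HepG2, short of the fold of 1 in both and of the adjusted p in HepG2. This depended on single samples and, for the adjusted p in HepG2, also on the processing. Without Huh7 resistant replicate 2 or Huh7 parental replicate 1 it was called, at 1.11 and 1.27, and without HepG2 resistant replicate 1 or HepG2 parental replicate 2 it was called, at 1.21 and 1.11. With median-ratio scaling it was also called in Huh7, at 1.00, and with the GC trend removed it was 0.47 (limma adjusted p = 0.056). In HepG2 the adjusted p was 0.021 with limma-voom and 0.041 with the GC trend removed. It was 0.047 with all 12 samples in 1 fit and 0.012 with the replicate block, each short of the fold. Under the other processing steps the limma adjusted p in HepG2 was 0.069 to 0.19. Of the exonic bases of APOA1, 74.3% lie within the span, introns included, of a NONCODE gene on the opposite strand. Since the sources do not say whether reads were counted by strand, reads of the pair may not have been told apart. That NONCODE gene was at 0 to 2.52 FPKM.

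APOM (ENSG00000204444, chr6:31652416-31658210, plus strand), the carrier of sphingosine-1-phosphate on HDL, was at 19.2 to 24.9 FPKM in resistant and 17.97 to 21.5 in parental Huh7. In HepG2 it was at 123 to 180.1 in resistant and 142 to 233.5 in parental cells. The groups overlapped in both lines. Its log2 fold change was 0.13 (95% interval -0.16 to 0.42, adjusted p = 0.37) in Huh7, where it turned to -0.14 with the GC trend removed, and -0.35 (-0.86 to 0.16, adjusted p = 0.29) in HepG2.

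APOA4 (ENSG00000110244, chr11:116820700-116823306, minus strand), a protein of intestinal particles that the liver makes in small amounts, had 2, 1 and 7 reads in resistant Huh7 and 1, 4 and 2 reads in resistant HepG2. It was listed at 0 in all 6 parental samples. The highest level was 0.25 FPKM. Set against a floor of 3 reads over a parental group, the level was 2.97-fold higher in resistant Huh7 and 1.83-fold higher in resistant HepG2. These ratios allow for counting error in the parental 0 only. They take the 10 and 7 resistant reads as exact and are not lower bounds of the change. Where all genes above 0 were tested, limma gave adjusted p = 0.13 in Huh7 and 0.12 in HepG2. Whether parental cells lacked the transcript was not detectable at this depth.

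APOB (ENSG00000084674, chr2:21001429-21044073, minus strand) encodes the scaffold of VLDL, of which each particle holds a single copy. Its level was 685, 578 and 549.9 FPKM in resistant Huh7 and 686, 872 and 999.5 in parental Huh7. In HepG2 it was 1410.2, 1089 and 1103 in resistant and 1079, 922 and 1394 in parental cells. In Huh7 all resistant samples were below all parental samples, with resistant replicate 1 and parental replicate 1 within 1 FPKM of each other, and in HepG2 the groups overlapped. The log2 fold change was -0.48 ± 0.18 in Huh7 (limma adjusted p = 0.036), where the parental mean was 1.41 times the resistant mean. It was -0.17 (limma adjusted p = 0.42) with the GC trend removed. The limma adjusted p in Huh7 was 0.15 without the filter on low values, 0.066 with median-ratio scaling and 0.053 with the replicate block. With each sample left out it ran from 0.0087 to 0.12. In HepG2 the log2 fold change was 0.10 (95% interval -0.36 to 0.55, adjusted p = 0.76) and turned to -0.02 with median-ratio scaling. The test of the difference between the lines gave -0.58 (-1.19 to 0.02, limma adjusted p = 0.093).

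MTTP (ENSG00000138823, chr4:99563761-99623999, plus strand) encodes the large subunit of the transfer protein that lipidates APOB in the endoplasmic reticulum. Its level was 16.5, 12.7 and 14.2 FPKM in resistant HepG2 and 29.6, 21.1 and 32.1 in parental HepG2. In Huh7 it was 65.5, 92.7 and 77.6 in resistant and 84.7, 89.9 and 99.99 in parental cells. The resistant samples were all below the parental samples in HepG2, and the groups overlapped in Huh7. Its log2 fold change was -0.87 ± 0.19 in HepG2 (limma adjusted p = 0.015), where the parental mean was 1.91 times the resistant mean. It passed the fold of 1 without HepG2 parental replicate 2, at -1.05, and under none of the other alternatives, and the adjusted p was 0.061 without HepG2 resistant replicate 3 and 0.057 without HepG2 parental replicate 1. In Huh7 it was -0.23 (95% interval -0.56 to 0.10, limma adjusted p = 0.19) and turned to 0.22 (limma adjusted p = 0.061) with the GC trend removed. The change differed between the lines by 0.65 (0.12 to 1.18, limma adjusted p = 0.039), against 56.7% of all genes tested whose change differed between the lines. This difference was past the threshold in 12 of 21 fits and lost it without any 1 of 8 samples and without the filter on low values, with an adjusted p of up to 0.091. Of the exonic bases of MTTP, 55.8% lie within the span of a NONCODE gene on the opposite strand, at 0.44 to 4.75 FPKM.

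**Figure D2:**
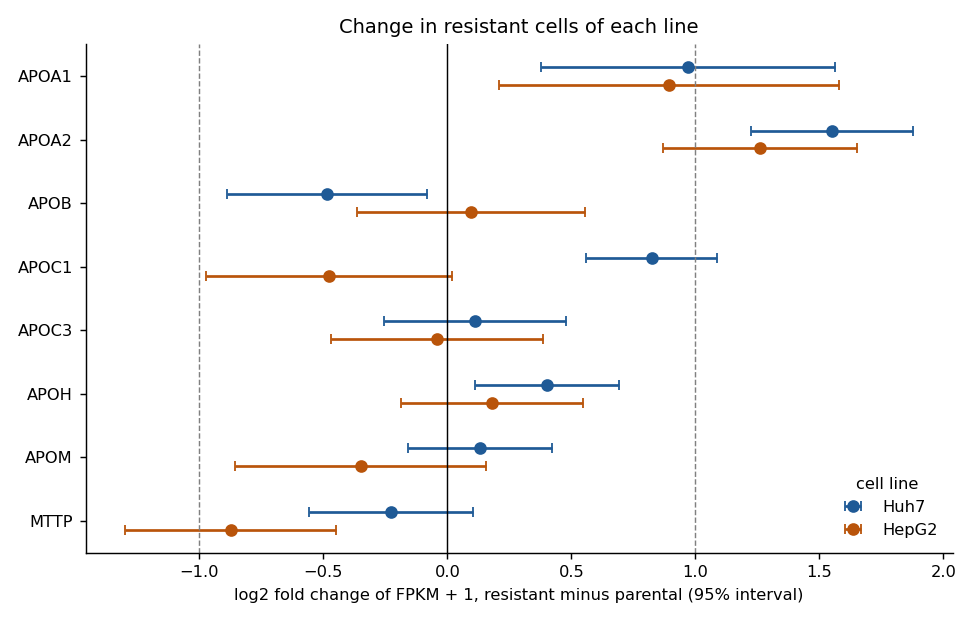
Log2 fold change of FPKM + 1 in resistant against parental cells for the 8 members tested, with 95% intervals from limma (3 against 3 samples); dashed lines mark the fold required for a call. APOA2 lies beyond 1 in both lines, at 1.55 in Huh7 and 1.26 in HepG2, and the intervals of APOC1 in the lines lie apart.

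APOC1 (ENSG00000130208, chr19:44914247-44919349, plus strand) encodes a small protein that inhibits cholesteryl ester transfer protein and hinders uptake of particles. Its level was 4.92, 3.92 and 4.40 FPKM in resistant Huh7 and 2.08, 2.22 and 1.86 in parental Huh7. In HepG2 it was 1.58, 1.96 and 1.79 in resistant and 2.04, 4.36 and 2.53 in parental cells. Resistant and parental samples lay apart in each line, with resistant samples above parental samples in Huh7 and below them in HepG2. In HepG2 the gap was narrow, between 1.96 FPKM (44 reads) in resistant replicate 2 and 2.04 FPKM (33 reads) in parental replicate 1. These levels rest on 33 to 115 reads a sample. The log2 fold change was 0.82 ± 0.12 in Huh7 (limma adjusted p = 0.00035) and -0.48 ± 0.22 in HepG2 (limma adjusted p = 0.15), where it was -0.24 without HepG2 parental replicate 2. On this scale the change of low genes is understated. With a pseudocount of 0.1 or limma-voom on reads it was called in Huh7, at 1.07 and 1.09. With the GC trend removed it was 0.33 in Huh7 and -0.57 in HepG2, where it then passed the adjusted p (limma adjusted p = 0.031) but not the fold. The difference between the lines was 1.30 (95% interval 0.75 to 1.85, limma adjusted p = 0.0012) and was past the threshold in each of the 21 fits, at 0.95 to 1.74.

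APOE (ENSG00000130203, chr19:44905754-44909393, plus strand), the ligand of hepatic lipoprotein receptors, was under 1 FPKM in every sample, although hepatocytes are known to make it. It had 19, 19 and 20 reads in resistant Huh7 and 13, 7 and 2 in parental Huh7. In HepG2 it had 16, 20 and 19 reads in resistant and 9, 2 and 16 in parental cells. The highest level was 0.50 FPKM. All resistant samples were above all parental samples in Huh7, and the groups overlapped in HepG2. Where all genes above 0 were tested, the log2 fold change was 0.30 ± 0.09 in Huh7 (limma adjusted p = 0.038) and 0.21 ± 0.12 in HepG2 (limma adjusted p = 0.36). APOE and APOC1 share a NONCODE gene on their own strand (NONHSAG026010.2, chr19:44907759-44931386, 0.25 to 0.85 FPKM), which holds 48.1% of the exonic bases of APOE and 100% of those of APOC1. How reads in overlapping genes were assigned is not given in the sources used here, so both levels are uncertain. Among 504 protein-coding genes that lie wholly within such a gene, 49.4% had a mean under 1 FPKM, against 46.8% of 14749 with no such overlap and 35.3% of 357 with 40% to 60% of their exonic bases in such a gene, as APOE has. APOH, with 60.1% of its exonic bases within NONHSAG073810.1, reached 1636 FPKM. Overlap was taken over the whole span of a NONCODE gene, introns included, so these values cannot say whether exons were shared. The part of the overlap in the low values of APOE and APOC1 was not tested.

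APOC3 (ENSG00000110245, chr11:116829706-116833072, plus strand) encodes an inhibitor of lipoprotein lipase and of hepatic uptake of remnants. Its level was 31.6, 22.9 and 27.03 FPKM in resistant Huh7 and 30.2, 21.7 and 23.4 in parental Huh7. The HepG2 values were 80.3, 117 and 109 in resistant and 108, 117 and 88.5 in parental cells. The groups overlapped in both lines. Its log2 fold change was 0.11 (95% interval -0.25 to 0.48, limma adjusted p = 0.55) in Huh7, where it turned to -0.42 (limma adjusted p = 0.0071) with the GC trend removed. It was -0.04 (-0.47 to 0.38, limma adjusted p = 0.89) in HepG2, and turned to 0.12 and 0.04 without HepG2 resistant replicate 1 or HepG2 parental replicate 2.

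APOH (ENSG00000091583, chr17:66212033-66256525, minus strand) encodes beta-2-glycoprotein I, which binds anionic phospholipids. Its level was 1636, 1506 and 1594 FPKM in resistant and 1192, 1460.1 and 1553 in parental HepG2. In Huh7 it was 110.1, 135 and 137 in resistant and 90.5, 105 and 93.0 in parental cells. Resistant samples were above parental samples in Huh7, and the groups overlapped in HepG2. Its log2 fold change was 0.40 ± 0.13 in Huh7 (limma adjusted p = 0.021) and 0.18 (95% interval -0.19 to 0.55, adjusted p = 0.45) in HepG2. With the GC trend removed it was 0.77 in Huh7 (limma adjusted p = 0.00043), still short of the fold required. The limma adjusted p in Huh7 was 0.057 without Huh7 resistant replicate 2, 0.099 without Huh7 resistant replicate 3 and 0.054 without Huh7 parental replicate 1.

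Seen as a group, 5 of the 8 members tested had an adjusted p under 0.05 in Huh7, as had 70.1% of all genes tested, and 2 of 8 did in HepG2, as had 20% of all genes. In Huh7, 4 of the 8 were higher and 1 was lower without overlap of the groups, against 74.5% of all genes in either direction. In HepG2, 1 was higher and 2 were lower without overlap, against 40.4% of all genes. These shares stand near the background in both lines. The median log2 fold change of the 8 was 0.27 in Huh7, beside -0.04 over all genes tested, and 0.03 in HepG2, beside 0.12.

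The fold changes in Huh7 moved with the GC content of the gene. After removal of the GC trend, the values of APOA1 (62.7% GC in its longest transcript), APOC3 (60.4%) and APOC1 (55.4%) fell from 0.97 to 0.47, from 0.11 to -0.42 and from 0.82 to 0.33. The values of APOH (42.9%), MTTP (42.1%) and APOB (43.5%) went from 0.40 to 0.77, from -0.23 to 0.22 and from -0.48 to -0.17. In HepG2 the same step moved APOA1 the most, from 0.89 to 0.66. Which of these values is nearer to the RNA content of the cells was not tested.

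**Figure D3:**
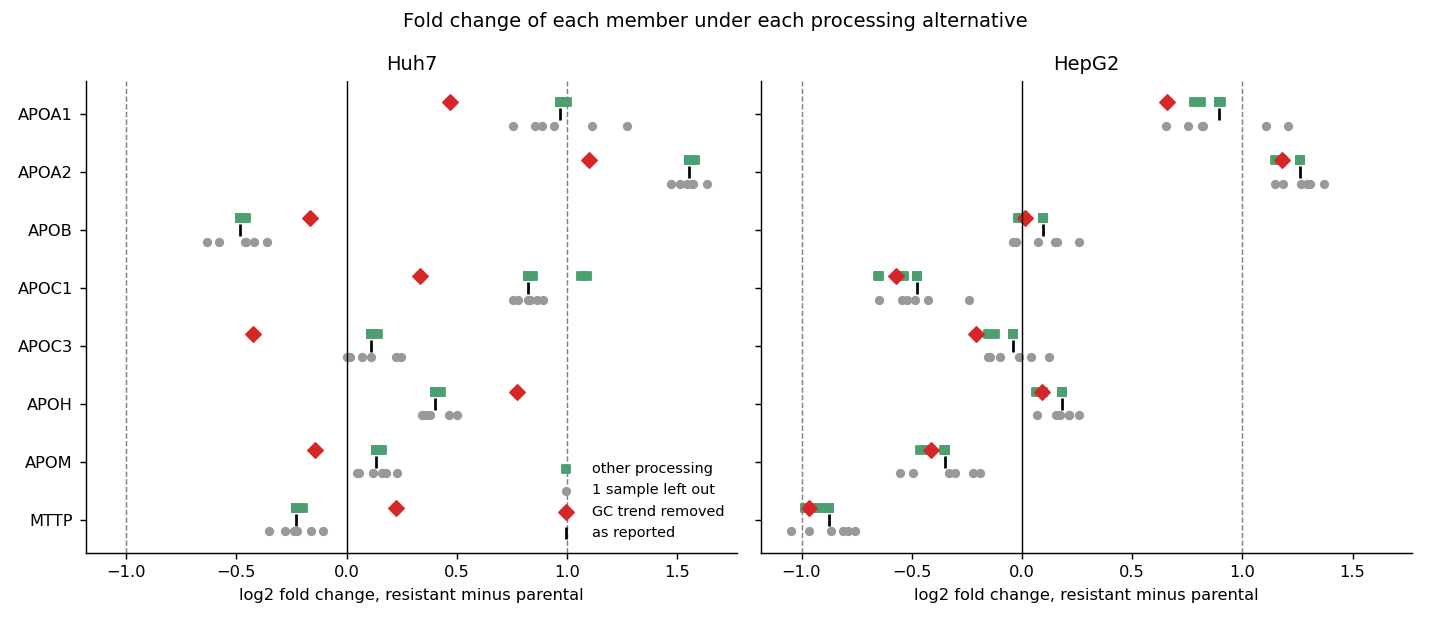
Log2 fold change, resistant against parental, of the 8 members tested under each processing alternative; black ticks are the values reported, red diamonds the values without the GC trend, green squares the other processing steps and grey points the fits with 1 sample left out. APOA2 stays beyond 1 in both lines, and APOC3, APOM and MTTP change sign in Huh7 without the GC trend.

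The parental lines differed in 4 of the 8 members tested, with MTTP higher and APOH, APOM and APOC3 lower in Huh7, where 19.4% of all genes tested were called higher and 12.5% lower than in HepG2. For APOH the mean was 96.01 FPKM in parental Huh7 and 1402 in parental HepG2, which was 14.6 times as high (log2 fold change -3.85 ± 0.17, limma adjusted p = 6.4e-07). APOM was 9.53 times as high in parental HepG2 (-3.16 ± 0.20, limma adjusted p = 3.6e-06), and APOC3 was 4.16 times as high (-2.02 ± 0.17, limma adjusted p = 2.1e-05). MTTP was 3.32 times as high in parental Huh7 (1.71 ± 0.18, limma adjusted p = 6.2e-05). These 4 calls were made in each of the 16 fits. The median of all genes was 0.19 as deposited and 0.05 with median-ratio scaling, under which APOH was at -4.02 and MTTP at 1.54. APOA1, APOA2, APOB and APOC1 did not differ detectably, with log2 fold changes of -0.53, -0.22, -0.40 and -0.34 and limma adjusted p of 0.15, 0.26, 0.16 and 0.18. In resistant cells, for which no test between the lines was planned, the mean of APOH was 12.4 times, that of APOM 6.70 times and that of APOC3 3.76 times as high in HepG2, and that of MTTP 5.44 times as high in Huh7.

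**Figure D4:**
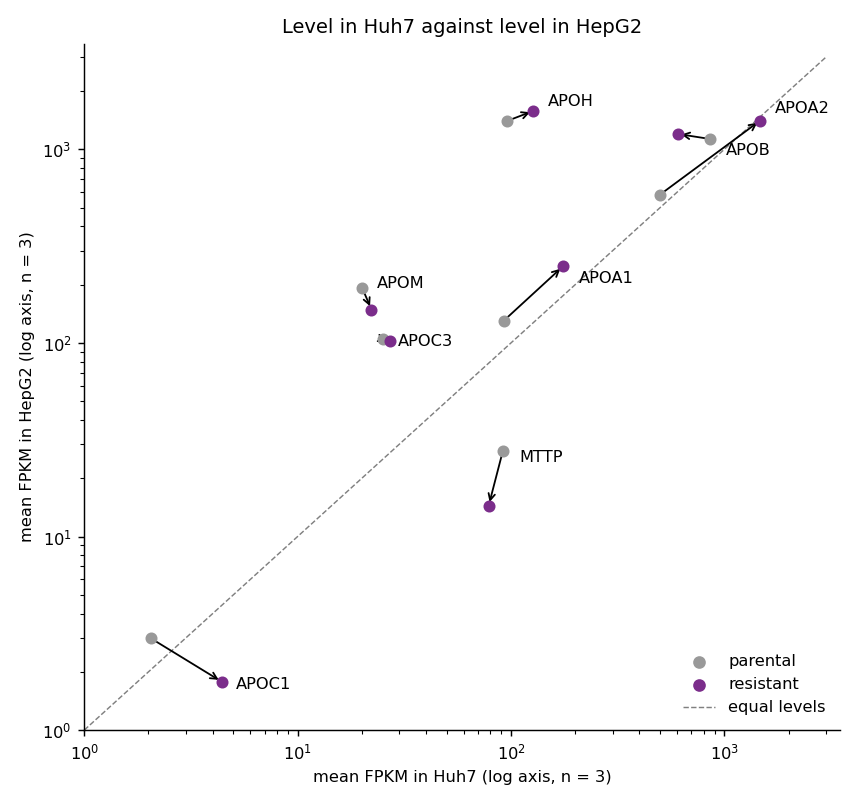
Mean FPKM in HepG2 against mean FPKM in Huh7 for the 8 members tested, on log axes, with an arrow from parental (grey) to resistant cells (purple); the dashed line marks equal levels. APOA2 and APOA1 move along the line of equal levels, APOH, APOM and APOC3 stay above it and MTTP below it.

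The order of the members by level differed between the lines. In parental Huh7, APOB (mean 853 FPKM) and APOA2 (499.9) led, followed by APOH (96.01), APOA1 (92.4) and MTTP (91.5), whose samples overlapped, then APOC3 (25.1), APOM (20.1) and APOC1 (2.05). In parental HepG2, APOH (1402) and APOB (1132) led with overlapping samples, then came APOA2 (584), APOM (191), APOA1 (130.1) and APOC3 (105), the last 3 overlapping with their neighbours, and MTTP (27.6) and APOC1 (2.98). In resistant Huh7, APOA2 (1472) stood above APOB (604) without overlap. In resistant HepG2, the samples of APOH (1579) and APOA2 (1408) overlapped, as did those of APOA2 and APOB (1201).

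Together the 10 members took 1.04% to 1.13% of the summed FPKM of Ensembl genes in resistant and 0.80% to 0.99% in parental Huh7, and 2.18% to 2.47% in resistant and 1.63% to 1.99% in parental HepG2. APOB, APOA2 and APOH made up 82.5% to 92.2% of the sum of the members in any sample. The ratio of APOB to MTTP was 85.6, 85.8 and 77.9 in resistant and 36.4, 43.7 and 43.5 in parental HepG2. In Huh7 it was 10.5, 6.24 and 7.09 in resistant and 8.09, 9.71 and 9.997 in parental cells. The ratio was thus higher in every resistant HepG2 sample than in any parental sample, while in Huh7 the groups overlapped. The ratio of APOA2 to APOB was 2.15 to 2.98 in resistant and 0.51 to 0.75 in parental Huh7, and 0.98 to 1.503 in resistant and 0.44 to 0.67 in parental HepG2. These ratios were taken with the GC trend left in. Its removal took the log2 fold change in Huh7 from 1.55 to 1.10 for APOA2 and from -0.48 to -0.17 for APOB.

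**Figure D5:**
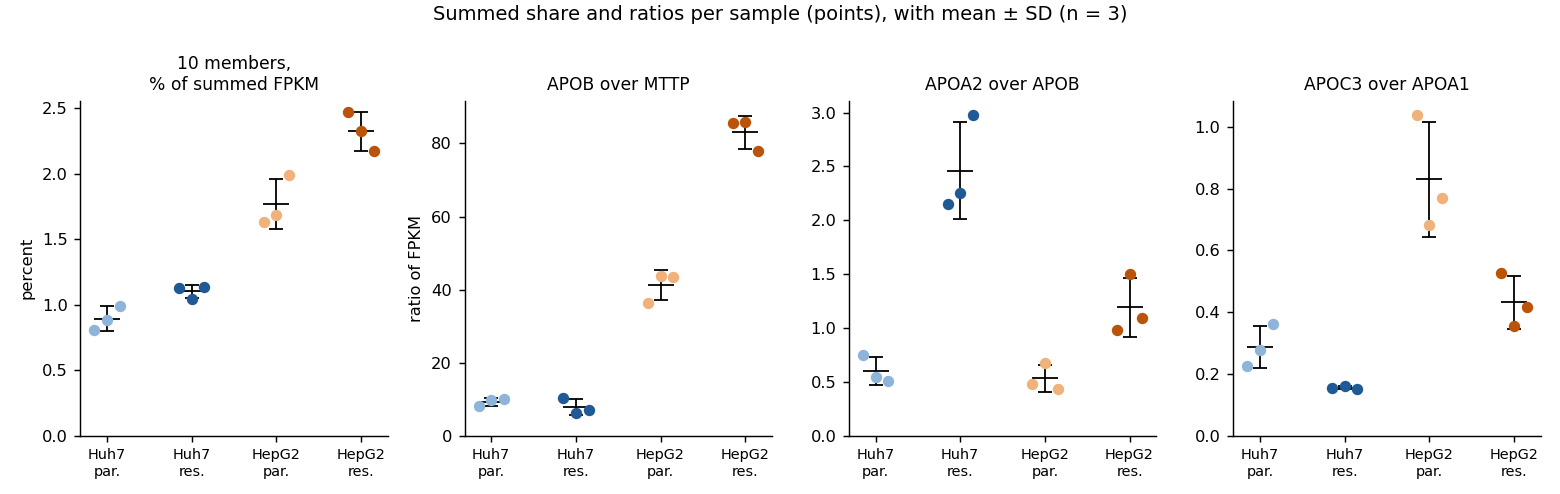
Share of the summed FPKM of Ensembl genes taken by the 10 members, in percent, and ratios of FPKM between members in every sample; points are samples, and bars and whiskers the mean and SD of 3 samples. The ratio of APOB to MTTP lies between 77.9 and 85.8 in resistant HepG2 and between 36.4 and 43.7 in parental HepG2.

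APOA1, APOC3, APOA4 and APOA5 lie beside each other on chromosome 11. APOC3 lies between APOA1 and APOA4 on the opposite strand, and its groups overlapped in both lines. The mean of APOA1, called in neither line, was 1.90 times as high in resistant Huh7 and 1.91 times in resistant HepG2, where its groups also overlapped. The ratio of APOC3 to APOA1 was 0.15 to 0.16 in resistant and 0.23 to 0.36 in parental Huh7, and 0.35 to 0.53 in resistant and 0.68 to 1.04 in parental HepG2. APOA5, an activator of lipoprotein lipase, was at 24.6 to 35.96 FPKM in resistant and 10.5 to 14.8 in parental HepG2 (log2 fold change 1.24 ± 0.19, limma adjusted p = 0.0038), and at 0.29 to 0.58 in all Huh7 samples.

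APOE, APOC1 and APOC2 lie in a row on chromosome 19, and all were listed at low levels. APOC2, the cofactor of lipoprotein lipase, was at 4.65 to 5.73 FPKM in resistant and 0.89 to 1.49 in parental Huh7 (log2 fold change 1.51 ± 0.13, limma adjusted p = 5.1e-05), a call lost with the GC trend removed. In HepG2 it was at 2.78 to 3.99 in resistant and 3.88 to 5.87 in parental cells (log2 fold change -0.42, limma adjusted p = 0.14). Its groups lay apart in Huh7 and overlapped in HepG2. A gene listed as APOC4-APOC2 (chr19:44942238-44949565, 0 to 0.29 FPKM) spans APOC2 on the same strand. How reads in overlapping genes were assigned is not given, so the level of APOC2 is uncertain too.

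Counts of called genes in the 4 lists that follow stand beside 8.59% of all genes tested called higher and 14% called lower in Huh7, and 3.29% and 2.98% in HepG2. Of 16 other apolipoprotein genes, 15 were in the tables. In Huh7, 6 were tested, of which 2 were called higher. They were APOC2 and APOD, a lipocalin, at 1.58 ± 0.13, with a mean of 3.21 FPKM in resistant cells and 0.37 to 0.41 FPKM in the parental samples. APOD passed the filter on low values through the resistant samples alone, so that it could enter the test only by being higher there. Without it, 1 of 5 was called higher, and the median log2 fold change was 0.74, beside -0.04 over all genes. In HepG2, 8 were tested and 1 was called higher (APOA5), with a median of 0.01 beside 0.12.

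Of 24 genes of VLDL assembly and secretion, 23 were in the tables and 21 were tested in Huh7, of which 2 were called higher and 1 lower. PLTP, which transfers phospholipids between particles, went from a mean of 7.75 to 47.7 FPKM (log2 fold change 2.49 ± 0.19). AADAC, a microsomal lipase, went from 4.54 to 17.1 FPKM (1.70 ± 0.14). MIA3, which loads bulky cargo into transport vesicles, went from 11.8 to 4.58 FPKM (-1.19 ± 0.12), a call lost with the GC trend removed. In HepG2, 19 were tested and 1 was called lower. It was CES1, a carboxylesterase that mobilises stored triglyceride, at 1.07 to 1.51 FPKM in resistant and 41.4 to 50.7 in parental cells (-4.34 ± 0.15, limma adjusted p = 6.3e-06). The medians of 0.16 and 0.19 stood beside -0.04 and 0.12 over all genes.

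Of 26 genes of lipoprotein receptors and remodelling, 24 were in the tables. In Huh7, 18 were tested, with 3 called higher and 2 lower. LCAT, which esterifies cholesterol on HDL, went from a mean of 3.40 to 12.2 FPKM (1.58 ± 0.15), and SDC1, a heparan sulphate receptor of remnants, from 18.5 to 48.2 (1.34 ± 0.13). The call of SDC1 was lost with the GC trend removed. In HepG2, 19 were tested and 1 was called lower, ANGPTL8, a secreted regulator of lipoprotein lipase activity, from 59.3 to 18.2 FPKM (-1.65 ± 0.14). The medians were 0.17 in Huh7 (0.28 without 1 gene that passed the filter through the parental samples alone) and 0.03 in HepG2.

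Of 26 regulators of apolipoprotein genes, 25 were in the tables. In Huh7, 23 were tested and 1 was called higher, the liver factor FOXA3, from 24.8 to 62.4 FPKM (1.32 ± 0.17), a call lost with the GC trend removed. In HepG2, 25 were tested and 4 were called lower. Among them, CEBPB went from 43.7 to 18.7 FPKM (-1.17 ± 0.16), the coactivator PPARGC1A from 11.7 to 5.01 (-1.08 ± 0.21) and the corepressor NR0B2 from 244 to 122 (-1.01 ± 0.18). NR0B2 fell short of the fold without HepG2 resistant replicate 1 or HepG2 parental replicate 2, and PPARGC1A lost its call without HepG2 resistant replicate 2 or HepG2 parental replicate 1. The medians were 0.15 in Huh7 (0.22 without 1 such gene) and 0.18 in HepG2.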

How the data were processed

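The authors deposited 1 table per sample with decimal values of unstated unit. Per the labels, libraries were made with a NEBNext Ultra RNA kit, and the submitters' processing notes name bcl2fastq and GRCh38. The labels and the paper's methods name different RNA extraction reagents. The aligner, the counting tool and whether reads were counted by strand are not given in the sources used here. The deposited values were taken as FPKM, since FPKM times exon length (GENCODE release 29) falls on whole reads for 96.4% of values up to 2000 reads, within 0.05. Whether pairs or single reads were counted, and so FPKM or RPKM, is not known. All 120 values of the members lay within 0.11 of a whole read.

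limma 3.58.1 in R 4.3.3 was fitted to log2(FPKM + 1) over all genes tested, with a trend on mean expression and two-sided Benjamini-Hochberg adjusted p-values. Each line was fitted on its own samples. The difference between the lines was the interaction over 12 samples, called on the adjusted p alone, over genes that passed the filter in either line. NONCODE genes were not tested. Alternatives were a pseudocount of 0.1, no filter on low values, upper-quartile and median-ratio scaling, no trend, limma-voom on recovered reads, removal of a lowess GC trend (span 0.3), all 12 samples in 1 fit, the replicate number as a block and leaving out each sample. The fit was tested on simulated data. The members, lists and motifs were chosen with earlier results of these data known. Named genes of the lists are the called ones, at most 4 with the largest change per line, of which some are not reported here. Read floors (3 reads) cover the counting error of the group at 0 only, not that of the group it is set against.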

Additional observations from a re-analysis of the deposited data

Results flagged for a closer look

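The change of APOC1 and the change of MTTP in resistant cells differed between the lines, which was tested with the interaction of line and resistance in limma over 12 samples (3 a group). By the same test the change differed in 56.7% of all genes tested. For APOC1 the change in Huh7 minus that in HepG2 was 1.30 on the log2 scale (limma adjusted p = 0.0012), with each resistant sample above each parental sample in Huh7 and below it in HepG2. The gap in HepG2 was narrow, at 1.96 against 2.04 FPKM, and the change there did not pass (limma adjusted p = 0.15). With the GC trend removed it passed the adjusted p (limma adjusted p = 0.031) but not the fold. For MTTP the difference between the lines was 0.65 (limma adjusted p = 0.039), with 3 of 3 resistant samples below all parental samples in HepG2 and overlapping groups in Huh7. This difference was past the threshold in 12 of 21 fits.

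A NONCODE gene that no comparison used, NONHSAG003253.2 (chr1:161220062-161221627), lies next to APOA2 on the same strand, and its resistant samples were above its parental samples in both lines. Its mean in resistant cells was 13.6 FPKM in Huh7, against 4.78 to 5.65 in the parental samples, and 30.9 FPKM in HepG2, against 14.1 to 23.7. Of all Ensembl genes tested, the groups did not overlap in 74.5% in Huh7 and 40.4% in HepG2.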

How the results depend on the processing

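The number of genes called was 2838 in Huh7 and 737 in HepG2. It was 4295 and 1157 with limma-voom on recovered reads, and 1487 in Huh7 with the GC trend removed (701 higher and 786 lower). Calls on the difference between the lines, made on the adjusted p with no fold limit, were 3181 higher and 4547 lower, and 3877 and 3911 with median-ratio scaling. The number of members called in Huh7 was 1, and 2 with a pseudocount of 0.1, median-ratio scaling or limma-voom. For the difference between the lines it was 2, and 1 without the filter on low values, 3 with limma-voom (APOB added) and 3 with the GC trend removed (APOH added). With 1 sample left out, it was 1 to 2 in Huh7, 1 to 3 in HepG2 and 1 to 3 for the difference between the lines. Signs turned with the GC trend removed for APOC3 (-0.42), APOM (-0.14) and MTTP (0.22) in Huh7 and for the difference between the lines in APOA1 (-0.17), APOA2 (-0.039) and APOC3 (-0.18). For APOB in HepG2 the sign turned with median-ratio scaling (-0.019). With single samples left out, the change in HepG2 ran from -0.041 to 0.26 for APOB and from -0.16 to 0.12 for APOC3, and the difference between the lines from -0.24 to 0.38 for APOA1 and from -0.0095 to 0.29 for APOC3. Of these values, that of APOC3 in Huh7 was past the adjusted p (limma adjusted p = 0.0071) but not the fold, and the cause was not tested. The share of summed FPKM taken by the members was 0.96%, 0.69%, 1.89% and 1.49% over all rows, against 1.10%, 0.89%, 2.32% and 1.77% over Ensembl genes, in resistant Huh7, parental Huh7, resistant HepG2 and parental HepG2.

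Whether samples with the same replicate number in the labels were paired is not known. Deviations of samples with the same number correlated at 0.08, 0.06 and -0.23 in Huh7 and 0.25, 0.44 and -0.01 in HepG2. Those of samples with different numbers correlated at -0.33 to 0.28 in Huh7 and -0.42 to 0.21 in HepG2. With the replicate number as a block, 1081 genes were called higher and 1760 lower in Huh7, and 426 higher and 353 lower in HepG2, and APOA2 was the member called in each. The block took the limma adjusted p of APOA1 in HepG2 from 0.068 to 0.012, at a log2 fold change of 0.89, short of the fold required.

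With 3 samples a group, changes as small as those of APOB in Huh7 depended on single samples and on the processing. APOA4 and APOE rest on at most 7 and 20 reads a sample, and both were left out by the filter on low values.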
